A study of Mus musculus with 11 samples.

Results

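The cytosolic ribosomal protein (RP) genes were followed across the cell types of mouse brain cortex, as 86 genes out of 26921 in the deposited count tables. Members were taken by symbol, as every gene named Rpl, Rps or Rplp with a number (an a, l or x ending allowed) together with Rpsa, and with the names ending in -ps left out. All mice were C57BL/6, and the methods state that females were used unless noted otherwise. The 4 groups were juvenile mice at postnatal day 10 (4 libraries), adult mice of 7 to 11 weeks (3 libraries), aged mice of 18 months (2 libraries), all untreated, and mice with experimental autoimmune encephalomyelitis (EAE, 2 libraries). EAE, an autoimmune inflammation of the central nervous system, was induced at 7 to 11 weeks with a peptide of myelin oligodendrocyte glycoprotein in Complete Freund's Adjuvant followed by pertussis toxin, and was taken at its peak, while the adults received neither agent, so disease, adjuvant and toxin cannot be told apart. Every library was made from pooled cortex of 6 mice (juvenile, adult) or 3 mice (aged, EAE) that was digested with enzymes at warm temperature, freed of myelin and dead cells and captured with 10x Chromium 3′ chemistry. The labels do not say whether libraries of a group came from separate pools of mice, so p-values measure the spread between these libraries, which may be technical.

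Each cytosolic ribosome is built from a large (60S) and a small (40S) subunit, in which RPs hold ribosomal RNA in shape. Rplp0, Rplp1 and Rplp2 form the stalk that recruits translation factors, Rpsa sits on the small subunit and is also known as the laminin receptor, and Rps6 is the substrate of S6 kinase downstream of mTORC1. RP mRNAs are the classical TOP mRNAs, which begin with a C followed by a run of pyrimidines that couples their translation to mTORC1. Growing and dividing cells are known to hold more ribosomes than resting ones. Several RPs have a paralogue (Rpl22 and Rpl22l1, Rps27 and Rps27l, Rpl3 and Rpl3l, Rpl39 and Rpl39l), and many have processed pseudogenes of near-identical sequence.

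The start sites of members are shown first because the pyrimidine run is what RP mRNAs are known to share. RefSeq promoter entries (GRCm38.p6) were matched by symbol for 62 of the 86 members. Windows of 30 bases, from 10 bases before to 20 bases after the annotated start, are printed 5′ to 3′ on the strand of the gene, with the longest pyrimidine run in capitals. The first 6 genes are described below by their values, and Rpl5 and Rps3 are 2 members with short runs.
Rpl27a, chr7:109519185-109519214, plus strand: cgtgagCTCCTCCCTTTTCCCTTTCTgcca
Rpl35, chr2:39005112-39005141, minus strand: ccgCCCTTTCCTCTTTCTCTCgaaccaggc
Rpl15, chr14:18270967-18270996, minus strand: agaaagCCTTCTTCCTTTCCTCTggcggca
Rpl38, chr11:114668570-114668599, plus strand: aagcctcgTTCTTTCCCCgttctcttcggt
Rps6, chr4:86857348-86857377, minus strand: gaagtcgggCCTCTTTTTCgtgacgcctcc
Rplp0, chr5:115559457-115559486, plus strand: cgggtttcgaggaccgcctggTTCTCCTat
Rpl5, chr5:107900518-107900547, plus strand: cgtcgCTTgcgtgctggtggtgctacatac
Rps3, chr7:99483690-99483719, minus strand: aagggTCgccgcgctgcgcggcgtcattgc

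A run of at least 8 pyrimidines was present in 24 of the 62 members (38.7%), against 3493 of 26963 other genes (12.95%). The annotated start itself was a C followed by 4 pyrimidines in 13 members (21.0%), against 2.97% of other genes. The runs were 20 bases in Rpl27a, 18 in Rpl35 and 17 in Rpl15, whereas Rpl5 had 3 and Rps3 had 2. These are descriptions of annotated starts, and no start was measured here. Some RefSeq windows do not lie at the gene start of GENCODE M21. The Rpl22 window begins at 152324426, before the gene start at 152325742. The Rps24 window begins at 24490668, inside the gene, which starts at 24487125.

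Sequence sharing limits what the counts of a member mean. In GENCODE M21 (GRCm38), 85 members were found and 82 had a coding mRNA, with lengths of 345 to 5130 bases (median 803.5). Within the last 400 bases of the mRNA, 59 members shared at least 1 stretch of 98 bases with another annotated gene, and 23 shared none. Rpl10 shared all of its stretches with 9 other genes, Rps6 shared 86.1%, Rpl24 84.5% and Rpl23a 83.2%, whereas Rpl32, Rps20, Rps24, Rpl22, Rpl27a and Rps27l shared none. Rps3a2, Rps3a3 and Rps12l1 are annotated as processed pseudogenes although their symbols match the rule, and Rps12l2 had no entry. Counts of members that share sequence could be split between copies or lost, so counts are also given for members without shared stretches.

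After filters on genes and mitochondrial reads, 50625 of 54646 barcodes were kept, between 2552 and 8322 per library with median depths of 2420 to 4199.5 UMIs, and RPs made 11.7% of their UMIs. Libraries of a group shared their values in pairs: Juvenile 1 with 2, Juvenile 3 with 4, Adult 2 with 3, Aged 1 with 2 and EAE 1 with 2 were, over all genes, closer to each other than to Adult 1 or to the other juvenile pair, although no pair fell within sampling noise by the limit set. Between 13 and 125 barcodes were shared by 2 libraries. Adult 1 stood apart, with most of its EC in zone clusters left unnamed, and results are given below without it and with the pairs summed. Transcripts of Ttr, a choroid plexus gene, were at 20031 to 50235 CPM (counts per unit of UMIs summed over that cell type and library, on the usual scale) in adult EC and at 3736 to 9029 CPM in EC of all other groups. Cell types were named by clusters made without RP genes.

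The RP share of UMIs differed several-fold between cell types of the same cortex. T and NK cells had the highest group means, 24.8% to 31.2%. B cells (20.9% to 30.7%) and monocytes and macrophages (17.8% to 26.6%) came next, in an order that varied between groups. Endothelial cells (EC) ranged from 7.41% to 17.9% over the 11 libraries, microglia (Micro) from 6.16% to 14.5%, and perivascular macrophages (PVM) from 7.61% to 12.9%. Mural cells, the pericytes and smooth muscle of the vessel wall, had 3.84% to 11.7%, and choroid plexus epithelium (CPE) 5.43% to 7.87%. Neutrophils had 2.96% ± 0.28 (SD, n = 2) in aged and 5.80% ± 0.06 (SD, n = 2) in EAE cortex, and astrocytes 3.74% ± 0.05 (SD, n = 2) and 5.69% ± 0.33 (SD, n = 2) in the same groups. Because these are shares, a higher value can come from more RP mRNA or from less of other mRNA, and the values do not tell the one from the other.

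**Figure D1:**
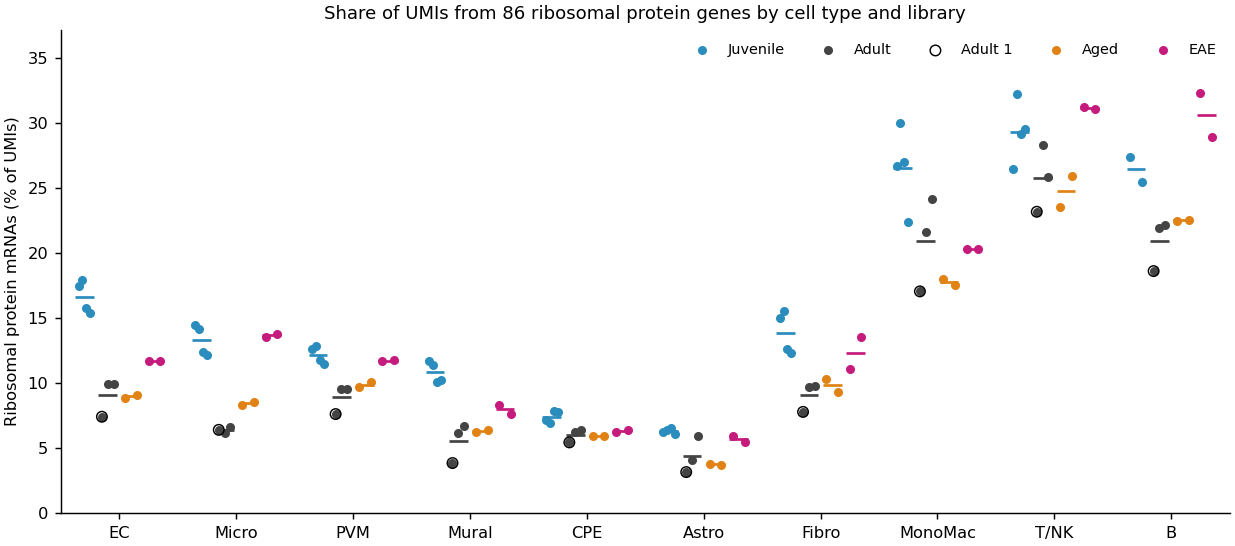
Share of UMIs from the 86 RP genes (y axis, percent of UMIs) in each library (points) of each cell type (x axis), coloured by group with the group mean as a line and Adult 1 ringed. Juvenile libraries sit above adult libraries in EC, Micro, PVM, Mural and CPE, EAE libraries sit with the juvenile ones in Micro (13.6% and 13.8%), and B cells are at 18.6% or more in the 9 libraries with at least 10 of them.

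Within a library, Mural cells were lower than EC in 11 of 11 libraries, with a median ratio of 0.666. CPE were also lower than EC in 11 of 11, with a median ratio of 0.547. Ttr alone was at 299590 to 360380 CPM in CPE, against at most 50235 CPM in EC, and its part in the lower share was not tested. Micro were above EC in 2 of 11 libraries, the EAE libraries, and PVM were above Micro in 5 of 11. In edgeR fits with the library as a block, 77 of 82 members tested were lower in Mural cells than in EC and 0 were higher, with a median log2 difference of -0.67 against -0.06 for all genes, where 50.1% of genes were called. The same count was 76 lower with library pairs summed. Among members without shared stretches 20 of 21 were lower. Rpl22l1 (-0.08 ± 0.08 (SE), adjusted p = 0.44) and Rps27l (-0.03 ± 0.08 (SE), adjusted p = 0.83) were not called between Mural cells and EC, although their paralogues Rpl22 (-0.75 ± 0.07 (SE), adjusted p = 4.5e-08) and Rps27 (-0.79 ± 0.06 (SE), adjusted p = 4.2e-10) were lower in Mural cells in every library. Median depth per cell was also lower in Mural cells of the older groups (1298 to 1749 UMIs per cell) than in EC of the same groups (2254 to 3690 UMIs per cell), and its part in the difference was not tested.

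Between Micro and EC the paired fit over all libraries showed no common direction of members. In this edgeR fit 8 of 83 members were higher and 25 lower in Micro, with a median of -0.07, against 73.3% of all genes called. The share of Micro over that of EC was 0.785 to 0.828 in juvenile and 0.621 to 0.864 in adult libraries. It was 0.938 and 0.941 in aged and 1.16 and 1.18 in EAE libraries, so the fit averages groups of opposite direction. Rpl38, a large-subunit protein known for translation of Hox mRNAs, had 1880, 2248 and 2320 CPM in adult EC and 604, 552 and 603 CPM in adult Micro. In juvenile EC it had 3251, 3613, 3046 and 2413 CPM, and in juvenile Micro 809, 804, 633 and 478 CPM. The ranges of EC and Micro did not overlap, and Rpl38 was lower in Micro in every library (-1.61 ± 0.15 (SE) on the log2 scale, adjusted p = 1.8e-07). It was also lower in Mural cells than in EC (-1.81 ± 0.10 (SE), adjusted p = 6.5e-12). Rps27l (-0.66 ± 0.08 (SE), adjusted p = 1.7e-06) and Rpl41 (-0.58 ± 0.10 (SE), adjusted p = 0.00015) were lower in Micro in every library, while Rpl10 (0.57 ± 0.11 (SE), adjusted p = 0.00031) and Rpl24 (0.99 ± 0.09 (SE), adjusted p = 1.3e-07) were higher in every library. Rpl10 and Rpl24 share most of their stretches with other genes.

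PVM and Micro, both brain-resident macrophages, differed in 37 of 81 members tested, 34 higher and 3 lower in PVM, with a median of 0.17 against 56.1% of all genes called. Only 7 members were higher in PVM in every library and 2 lower, against 10.6% and 19.0% of all genes. The fit averages groups of opposite direction. The share of PVM over that of Micro was 1.19 to 1.55 in adult and 1.16 and 1.18 in aged libraries. It was 0.873 to 0.954 in juvenile and 0.859 and 0.852 in EAE libraries. With library pairs summed the count was 17 higher and 2 lower. Rps29 (0.94 ± 0.11 (SE), adjusted p = 7.8e-08), Rpl38 (0.87 ± 0.09 (SE), adjusted p = 1e-08) and Rps27l (0.70 ± 0.07 (SE), adjusted p = 1.3e-08) were higher in PVM in every library. Rpl24 was lower in PVM in every library (-0.95 ± 0.11 (SE), adjusted p = 7.8e-08), and the stalk gene Rplp0 was lower by a small amount (-0.29 ± 0.09 (SE), adjusted p = 0.012). Across 79 members the PVM difference fell with mRNA length (Spearman rho = -0.52), a description over genes that share libraries.

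Juvenile EC had 17.5%, 17.9%, 15.8% and 15.4% RP UMIs, adult EC 7.41%, 9.92% and 9.97%. All juvenile libraries were above all adult libraries, and the means of 16.6% ± 1.3 (SD, n = 4) and 9.10% ± 1.5 (SD, n = 3) differed 1.83-fold, or 1.67-fold without Adult 1. By edgeR quasi-likelihood tests over all genes, 74 of 84 members tested rose and 1 fell, with a median log2 change of 0.93 against -0.04 for all genes, of which 48.8% were called. Every juvenile library exceeded every adult library for 71 members, against 21.0% of all genes. The count was 53 up and 0 down with library pairs summed and 71 up and 1 down without Adult 1, where the median was 0.79. Members without shared stretches gave 20 up of 22. Rpl3l and Rps12l1 were too low to be tested.

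The stalk gene Rplp0 (chr5:115559467-115563727) showed the largest rise among members at 50 CPM or more. It had 3769, 3880, 3321 and 3272 CPM in juvenile EC and 849, 1196 and 1202 CPM in adult EC, without overlap. The log2 change was 1.79 ± 0.13 (SE), adjusted p = 8.5e-08. Its stalk partners rose less, Rplp2 by 0.91 ± 0.11 (SE, adjusted p = 1.8e-05) and Rplp1 by 0.76 ± 0.13 (SE, adjusted p = 0.00039). Rps7 (1.66 ± 0.12 (SE), adjusted p = 1e-07) and Rpsa (1.501 ± 0.13 (SE), adjusted p = 4.8e-07) of the small subunit rose as well. Among paralogues, Rpl22l1 rose by 1.49 ± 0.11 (SE, adjusted p = 1.4e-07) and Rpl22 by 0.94 ± 0.11 (SE, adjusted p = 1.1e-05). Rpl22l1 had 863 to 970 CPM in juvenile and 274 to 383 CPM in adult EC, whereas Rpl22 had 881 to 927 and 393 to 544 CPM.

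Members not called higher in juvenile EC were few. The 9 members tested but not called in juvenile EC were Rps12l2, Rpl24, Rpl27a, Rps29, Rps3a3, Rpl39l, Rps3a2, Rpl15 and Rps6. Rps6 had 1744, 1960, 1018 and 948 CPM in juvenile and 959, 1103 and 1180 CPM in adult EC, so Juvenile 1 and 2 lay above the adult range while Juvenile 3 and 4 did not (0.46 ± 0.23 (SE), adjusted p = 0.14). Rpl15 was split in the same way, with 624 and 796 CPM in Juvenile 1 and 2, 274 and 240 CPM in Juvenile 3 and 4, and 321 to 483 CPM in adults. Rpl23a, the member that fell (-1.84, adjusted p = 0.0095 by edgeR), had 4.85 to 9.09 CPM in juvenile EC and 15.5 to 47.4 CPM in adult EC, where the highest value was Adult 1. Rpl23a shares 83.2% of its stretches with other genes.

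**Figure D2:**
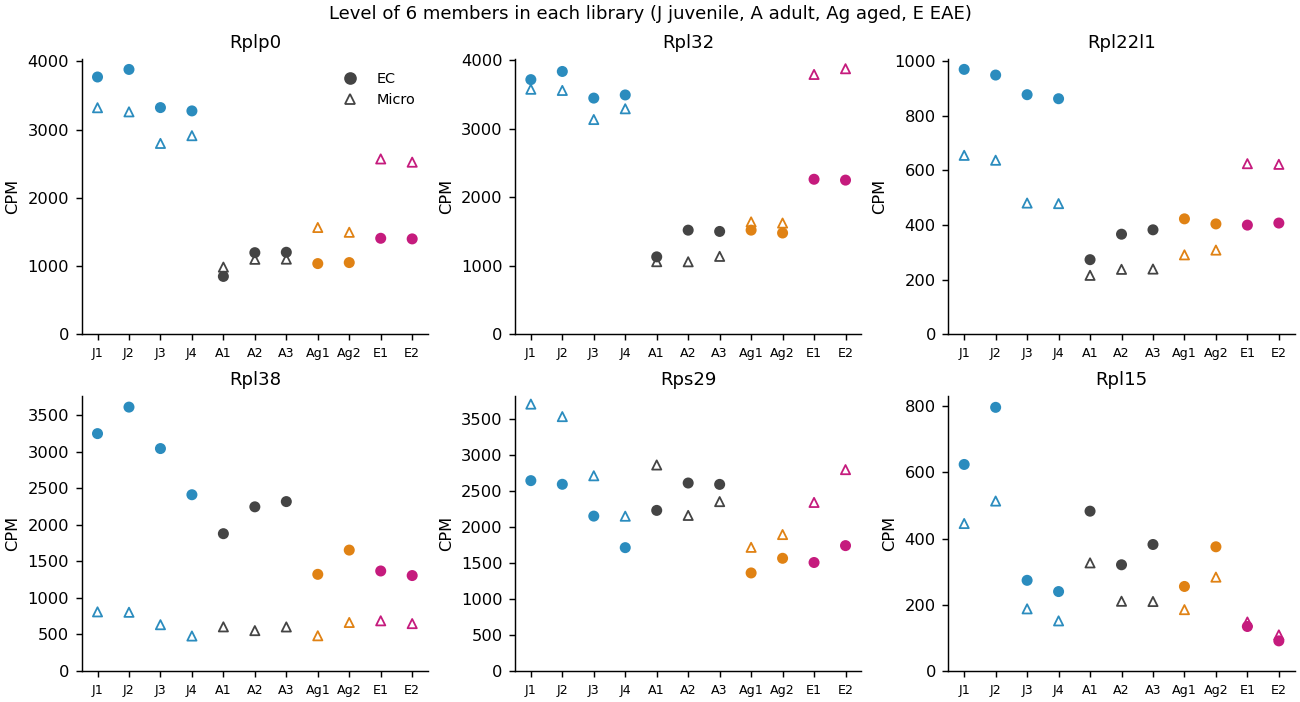
CPM (y axis, linear from 0) of 6 members in each of the 11 libraries (x axis; J juvenile, A adult, Ag aged, E EAE), with circles for EC and triangles for Micro, coloured by group. Rplp0, Rpl32 and Rpl22l1 are highest in juvenile EC and rise in EAE Micro, Rpl38 is higher in EC than in Micro in every library, and Rpl15 is split between Juvenile 1 and 2 and Juvenile 3 and 4.

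Juvenile Micro had RP shares of 14.5%, 14.1%, 12.4% and 12.2%, against 6.40%, 6.16% and 6.59% in adult Micro, a 2.08-fold difference without overlap. There 71 of 83 members rose and 2 fell, with a median of 1.04, against 27.0% of all genes called. Summing library pairs gave 63 up and 0 down. Of the 22 without shared stretches 18 rose. Rps19 (1.64 ± 0.11 (SE), adjusted p = 5.7e-09), Rpl32 (1.62 ± 0.09 (SE), adjusted p = 9.1e-10), Rps26 (1.58 ± 0.12 (SE), adjusted p = 2.1e-08) and Rplp0 (1.51 ± 0.09 (SE), adjusted p = 3.6e-09) rose most among the named members. Rpl24 fell by 0.66 ± 0.16 on the log2 scale (SE, adjusted p = 0.005), with 52.3 to 69.0 CPM in juvenile and 67.4 to 118 CPM in adult Micro, ranges that overlapped.

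Cells behind the adult microglial value were uneven. In adult Micro 52.0%, 53.5% and 49.8% of cells had an RP share under 5%, against 1.28% to 1.98% of juvenile, 20.6% and 20.2% of aged and 9.55% and 8.996% of EAE Micro. Over the 385, 273 and 303 adult Micro the RP share of a cell rose with its UMI count (Spearman rho = 0.62, 0.71 and 0.71), more than in any juvenile library (0.07 to 0.16). These are descriptions over cells of 1 library each. With cells of at least 1500 UMIs the adult mean was 7.06% in place of 6.38%, and 68 members rose and 1 fell.

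Juvenile PVM had 12.6%, 12.9%, 11.8% and 11.5% RP UMIs against 7.61%, 9.53% and 9.57% in adult PVM, a 1.37-fold difference. Every juvenile library was above every adult library for 58 members, against 14.3% of all genes, and below for 2, against 8.01%. Of 82 members 45 rose and 3 fell, with a median of 0.38, against 12.2% of all genes called (5.04% higher and 7.20% lower), and with library pairs summed the calls dropped to 1 up and 1 down. Without Adult 1, 32 rose and 3 fell. In juvenile PVM 7 of 16 immediate early and heat shock genes were lower and 0 higher (median -0.80), mitochondrial genes took 1.42% to 1.55% of UMIs against 0.888% to 1.06% in adult PVM, and Ttr was at 6563 to 21867 CPM against 21743 to 54171 CPM; their part was not tested. Rplp0 (0.80 ± 0.11 (SE), adjusted p = 2.2e-05), Rps19 (0.73 ± 0.11 (SE), adjusted p = 3.6e-05) and Rpl32 (0.71 ± 0.10 (SE), adjusted p = 3.7e-05) rose most among those named. Juvenile Mural cells had 10.1% to 11.7% against 3.84% to 6.72%, a 1.95-fold difference, and juvenile CPE 6.93% to 7.87% against 5.43% to 6.38%, a 1.23-fold difference, neither of which overlapped. Median depth was 4255 to 5094 against 1630 to 1749 UMIs in Mural cells and 7961 to 10305 against 3823 to 5783.5 UMIs in CPE. Ttr was at 4887 to 10940 against 21488 to 57809 CPM in Mural cells. Mitochondrial genes took 4.08% to 4.80% against 3.06% to 3.18% of UMIs in CPE. The part of these in the RP differences was not tested.

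The juvenile differences in EC and Micro were compared gene by gene as an interaction, the signed log2 change in EC minus that in Micro. Of 83 members 2 were called above 0 and 7 below 0, with a median of -0.08, against 17.9% of all genes (9.12% above and 8.74% below). Rps19 (-0.65 ± 0.12 (SE), adjusted p = 0.00011) and Rpl21 (-0.49 ± 0.12 (SE), adjusted p = 0.0028) were below 0, both having risen less in EC than in Micro, and Rpl24 (0.56 ± 0.15 (SE), adjusted p = 0.0076) and Rpl38 (0.39 ± 0.12 (SE), adjusted p = 0.026) were above 0. Of these last, Rpl24 fell by 0.66 on the log2 scale in Micro and was not called in EC, whereas Rpl38 rose by 0.59 in EC and was not called in Micro. The direction turned with DESeq2, to 9 above and 3 below 0, and with cells of at least 1500 UMIs, to 9 above and 2 below, whereas without Adult 1 there were 1 above and 34 below. With library pairs summed edgeR called 0 members, with 2 at an unadjusted p under 0.05.

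Other genes of the translation system were read beside the members, from lists given as counts. In juvenile EC, 16 of 19 non-ribosomal TOP mRNAs rose and 0 fell (median 0.84), among them Eef1b2, an elongation factor subunit (1.14 ± 0.10 (SE), adjusted p = 8.1e-07), Pabpc1, the poly(A)-binding protein (1.30 ± 0.11 (SE), adjusted p = 5.6e-07), and Npm1, the nucleolar chaperone of ribosome assembly (1.11 ± 0.09 (SE), adjusted p = 2e-07). Fau, whose product is cut into an RP, and Gnb2l1, which encodes the ring protein Rack1, rose with them (0.73 ± 0.11 and 1.08 ± 0.12, SE). Ribosome biogenesis genes rose in 25 of 44 cases with 3 lower in EC (median 0.34), and in 4 of 43 with 1 lower in Micro (median 0.04). Mitochondrial RPs rose in 40 of 73 cases with 2 lower in EC (median 0.25) and in 8 of 73 with 5 lower in Micro (median 0.12). Of 18 mTORC1 signalling genes 4 rose and 3 fell in EC, and 0 rose and 1 fell in Micro. Of all genes 23.8% were called higher in juvenile EC and 12.9% in juvenile Micro. Immediate early and heat shock genes, which respond to dissociation, went the other way, lower for 14 of 16 genes in juvenile EC (median -1.32) and for 12 of 16 in juvenile Micro (median -0.84), against 3451 of 13809 and 1592 of 11257 genes called lower in all. Depth differed as well, with medians of 5020 to 8317 UMIs in juvenile and 2934 to 3690 UMIs in adult EC. Mitochondrial genes took 1.21% to 1.28% of UMIs in juvenile and 0.799% to 0.969% in adult EC. The part of these and of Ttr in the RP difference was not tested.

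**Figure D3:**
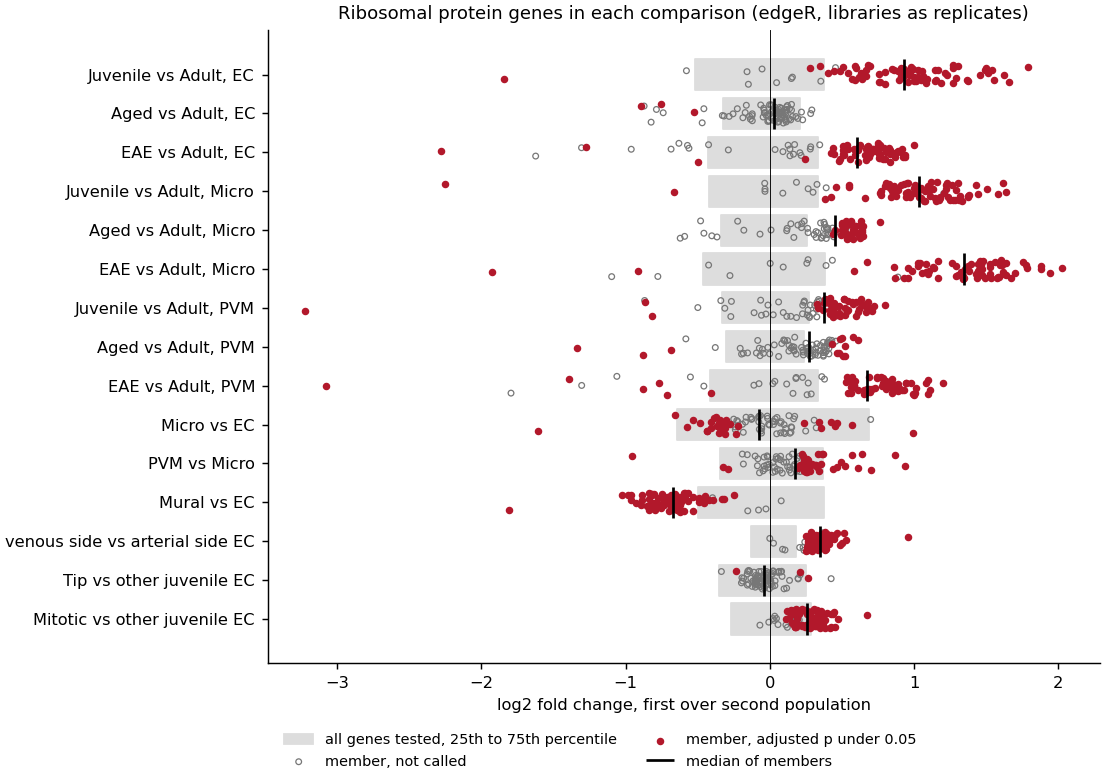
The log2 fold change (x axis) of each RP gene in each comparison (rows), from edgeR with libraries as replicates, with red points for members at an adjusted p under 0.05, open points for the others, a black line for the members' median and a grey bar for the 25th to 75th percentile of all genes tested. Medians lie at 0.93 in juvenile EC, 1.35 in EAE Micro and 0.03 in aged EC, and at -0.67 in Mural cells against EC.

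Aged EC had RP shares of 8.89% and 9.07%, above Adult 1 at 7.41% and below Adult 2 and 3 at 9.92% and 9.97%, a ratio of 0.987 to all adults and of 0.903 to Adult 2 and 3. Of 84 members 0 rose and 3 fell, with a median of 0.03, against 10.5% of all genes called by edgeR (4.98% higher and 5.52% lower). There were 9 members with an unadjusted p under 0.05, and DESeq2 called 6, all lower. The share of all genes at that unadjusted limit was not counted. Without Adult 1 there were 0 up and 11 down, with a median of -0.12, and without Aged 1 or without Aged 2, which leaves 1 aged library, there were 0 calls. With library pairs summed, which leaves 1 aged unit, edgeR called 0 members, with 1 at an unadjusted p under 0.05. Rps29 had 1360 and 1564 CPM in aged and 2229, 2609 and 2590 CPM in adult EC, without overlap (-0.75 ± 0.16 (SE), adjusted p = 0.012). Rps28 (-0.89 ± 0.21 (SE), adjusted p = 0.021) and Rpl38 (-0.52, adjusted p = 0.049 by edgeR) were the other members that fell. Rps29, Rps28 and Rpl38 have mRNAs of 390, 387 and 367 bases, among the shortest of the members. Rps27 (345 bases, the shortest), Rpl36 (383) and Rps21 (394) are about as short and were not called. Rpl22l1 showed the upper values, 423 and 404 CPM against 274 to 383 CPM, and was not called (0.28 ± 0.13 (SE), adjusted p = 0.17).

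In aged Micro the shares of 8.34% and 8.54% were above the adult 6.16% to 6.59%, a 1.32-fold difference. Ttr was at 7477 to 8988 CPM in aged and 22259 to 56240 CPM in adult Micro, without overlap, and its part was not tested. Of 83 members 41 rose and 0 fell, with a median of 0.45, against 3.20% of all genes called (1.82% higher and 1.38% lower), and every aged library exceeded every adult library for 68 members, against 14.8% of all genes. Members without shared stretches gave 14 up of 22. Rps4x had 1643 and 1617 CPM in aged and 997, 933 and 1035 CPM in adult Micro (0.77 ± 0.10 (SE), adjusted p = 0.00047). Rpl14 (0.65 ± 0.11 (SE), adjusted p = 0.0028) and Rplp0 (0.58 ± 0.11 (SE), adjusted p = 0.0058) rose as well. The aged arm has 1 unit with library pairs summed, and 1 library without Aged 1 or Aged 2, whose spread is then taken from the other groups. The calls in aged Micro numbered 0 by edgeR with library pairs summed, where 37 members had an unadjusted p under 0.05, 1 without Aged 1, 10 without Aged 2, 16 with cells of at least 1500 UMIs (median 0.30) and 52 with DESeq2.

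In aged PVM 10 of 82 members rose and 3 fell, with a median of 0.27, against 3.14% of all genes called and 1.63% called higher. Without Aged 1 or without Aged 2, which leaves 1 aged library, the count was 0 up and 1 down, and with library pairs summed edgeR called 0, with 8 at an unadjusted p under 0.05. Rps29 fell in aged PVM by 0.88 ± 0.14 on the log2 scale (SE, adjusted p = 0.00032), at 2869 and 3287 CPM against 5328 to 6165 CPM. Ttr was at 5674 to 13708 CPM in aged PVM, below all adult PVM, and 4 of 16 immediate early and heat shock genes were lower (median -1.40); their part was not tested. The interaction of age with cell type gave 31 of 83 members with a lower signed log2 change in EC than in Micro and 0 with a higher one, with a median of -0.51, against 1.41% of all genes. That count was 64 without Adult 1 and 46 with DESeq2, but 0 by edgeR with library pairs summed (17 at an unadjusted p under 0.05), with cells of at least 1500 UMIs, with no filter on low counts, and without Adult 2, Adult 3, either aged library or any juvenile library. Several of these settings leave 1 aged library or unit.

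EAE Micro showed the largest median change of the 9 condition comparisons. Their RP shares were 13.6% and 13.8% against 6.40%, 6.16% and 6.59% in adult Micro, a 2.14-fold difference without overlap. Of 83 members 70 rose and 2 fell, with a median of 1.35, against 27.7% of all genes called, and with library pairs summed, which leaves 1 EAE unit whose spread is taken from the other groups, 66 rose and 0 fell. Of the 22 without shared stretches 19 rose. Leaving out 1 library at a time gave 71 to 73 calls, with 1 EAE library left where it was an EAE library.

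Rpl32 of the large subunit had 3793 and 3876 CPM in EAE Micro and 1061, 1059 and 1138 CPM in adult Micro, without overlap. Its log2 change was 2.02 ± 0.10 (SE), adjusted p = 1.4e-10. The small-subunit members Rps20 (1.94 ± 0.11 (SE), adjusted p = 3.3e-10) and Rps24 (1.88 ± 0.10 (SE), adjusted p = 3.9e-10) followed, and these 3 genes share no stretch with another gene. The stalk rose as a whole in EAE Micro, with Rplp0 at 1.47 ± 0.11, Rplp1 at 1.46 ± 0.10 and Rplp2 at 1.53 ± 0.10 (SE, adjusted p = 8.7e-09, 3.3e-09 and 4.5e-09). Rplp1 had 3332 and 3405 CPM in EAE Micro and only 1921 to 2006 CPM in juvenile Micro. Rpl22l1 rose by 1.64 ± 0.14 (SE, adjusted p = 4.9e-08) and Rpl22 by 1.49 ± 0.11 (SE, adjusted p = 1.3e-08).

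In EAE Micro Rpl23a and Rpl24 fell, and 11 members were not called in either direction. Over all 83 members the log2 change was above 0 for 77 and below 0 for 6, so some members not called had a change above 0. Rpl24 had 46.1 and 42.0 CPM against 67.4 to 118 CPM (-0.91 ± 0.19 (SE), adjusted p = 0.0013). Rpl15 had 148 and 109 CPM against 210 to 326 CPM, and Rpl27a 272 and 206 CPM against 277 to 477 CPM, below the adult range in both cases but not called (adjusted p = 0.37 and 0.57 by edgeR). Rps6 had 744 and 604 CPM against 670 to 802 CPM (adjusted p = 0.85 by edgeR). Of the lists, 15 of 19 non-ribosomal TOP mRNAs rose in EAE Micro and 0 fell (median 0.80). Ribosome biogenesis genes rose in 8 and fell in 6 of 43 cases (median 0.15). Mitochondrial RPs rose in 25 and fell in 5 of 73 (median 0.32), and mTORC1 signalling genes rose in 6 and fell in 0 of 18 (median 0.14). Of all genes 14.2% were called higher and 13.5% lower. Ttr was lower in EAE Micro, at 7930 and 10581 CPM against 22259 to 56240 CPM, and immediate early and heat shock genes were lower for 8 of 16; their part was not tested.

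EAE EC moved in the same direction by less. Their RP shares were 11.7% in both libraries against 7.41%, 9.92% and 9.97%, a 1.28-fold difference, or 1.18-fold without Adult 1. Of 84 members 60 rose and 3 fell, with a median of 0.60, against 33.0% of all genes called. Every EAE library was above every adult library for 59 members, against 20.8% of all genes, and below for 11, against 39.9%. Without Adult 1 the median was 0.45. With library pairs summed, which leaves 1 EAE unit, edgeR called 0 members, with 51 at an unadjusted p under 0.05. Members without shared stretches gave 16 up and 1 down of 22. Of the lists, 11 of 19 non-ribosomal TOP mRNAs rose and 0 fell (median 0.49). Ribosome biogenesis genes rose in 2 and fell in 8 of 44 cases (median -0.09), and mitochondrial RPs rose in 16 and fell in 8 of 73. mTORC1 signalling genes rose in 6 and fell in 1 of 18, against 18.6% of all genes called higher and 14.5% lower. Rpl23 (1.002 ± 0.15 (SE), adjusted p = 0.00018), Rps12 (0.94 ± 0.18 (SE), adjusted p = 0.0014) and Rps20 (0.94 ± 0.17 (SE), adjusted p = 0.00089) rose most among members at 50 CPM or more. Rps20 had 1365 and 1396 CPM in EAE and 572, 953 and 928 CPM in adult EC.

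Lower values in EAE EC were again found in a few members. Rpl15 had 134 and 90.8 CPM against 321 to 483 CPM, without overlap, but was not called (-1.62 ± 0.54 (SE), adjusted p = 0.052). Rpl27a had 230 and 182 CPM against 502 to 636 CPM and fell (-1.27 ± 0.37 (SE), adjusted p = 0.028). Rpl35 had 681 and 631 CPM against 1072 to 1287 CPM and was not called (-0.68 ± 0.28 (SE), adjusted p = 0.092). Rpl38 fell (-0.50, adjusted p = 0.026 by edgeR), with 1369 and 1307 CPM. Rpl15, Rpl27a and Rpl35 have runs of 17, 20 and 18 bases in the windows printed above. Rpl7a, whose run is also 17 bases, rose (0.48 ± 0.13 (SE), adjusted p = 0.014). Rpl15 and Rpl35 share 45.2% and 74.9% of their stretches with other genes, and Rpl27a shares none.

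In EAE PVM, with shares of 11.7% and 11.8% against 7.61% to 9.57%, 57 of 82 members rose and 6 fell, with a median of 0.67, against 20.9% of all genes called (11.6% higher and 9.23% lower). Summing library pairs, which leaves 1 EAE unit, gave 29 up and 1 down. Rpl32 (1.20 ± 0.12 (SE), adjusted p = 2e-08), Rps20 (1.11 ± 0.14 (SE), adjusted p = 1.2e-06) and Rpl23 (1.099 ± 0.13 (SE), adjusted p = 4.6e-07) rose most. The 6 that fell were Rpl23a, Rpl24, Rps29, Rps3a2, Rps28 and Rpl38. Ttr was at 5913 to 6071 CPM in EAE PVM against 21743 to 54171 CPM in adult PVM, and 12 of 16 immediate early and heat shock genes were lower (median -2.02); their part was not tested. EAE CPE had 6.24% and 6.40% against 5.43%, 6.22% and 6.38%, with overlap, and EAE Mural cells 8.29% and 7.66% against 3.84% to 6.72%, without overlap. EAE B cells had 29.0% and 32.3% against 18.6% to 22.2% in adults.

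The difference between the EAE changes of EC and Micro was itself called. Of 83 members 76 had a lower signed log2 change in EC than in Micro and 0 a higher one, with a median of -0.85, against 15.6% of all genes. With library pairs summed, again with 1 EAE unit, 24 were lower and 0 higher, with cells of at least 1500 UMIs 67, and without any 1 library 61 to 77. Rpl22l1 (-1.30 ± 0.15 (SE), adjusted p = 8.1e-08), Rpl35 (-1.24 ± 0.16 (SE), adjusted p = 3.2e-07) and Rpl32 (-1.23 ± 0.14 (SE), adjusted p = 3.5e-08) had the largest gaps. Rpl22l1 had 400 and 408 CPM in EAE EC, close to 274 to 383 CPM in adult EC, but 625 and 623 CPM in EAE Micro against 216 to 239 CPM in adult Micro. Rps6 (-0.06 ± 0.15 (SE), adjusted p = 0.85) was not called. All 9 condition comparisons use the same adult libraries, so their results are not independent of each other.

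Along the vessel tree, EC were named arterial, capillary-arterial (CapA), capillary-venous (CapV), venous, and, in juvenile libraries, tip and mitotic. The venous cluster scored highest for the list of reactive venous markers (REV), and its leading genes were Lrg1, Vcam1, Lcn2, Icam1, Il1r1 and Cxcl1, so venous here covers both lists. With finer clusters the venous and REV class held 856 EC in place of 2560. Venous EC had the highest RP share of the 4 zones in juvenile libraries, 21.6%, 22.0%, 20.1% and 19.5%, against 11.1%, 12.5%, 12.1% and 11.6% in arterial EC of the same libraries. In adults venous EC had 10.1%, 11.9% and 11.98% and arterial EC 9.42%, 12.6% and 12.5%. In aged libraries venous EC had 10.3% and 10.5% and arterial EC both 11.3%, and in EAE venous EC had 13.6% and 13.4% and arterial EC 13.9% and 14.9%. Arterial EC were thus the highest of the 4 zones in 6 of the 7 libraries that were not juvenile, all but Adult 1. CapA EC were below arterial EC in 11 of 11 libraries, and venous EC were above CapV EC in 11 of 11. The shares of arterial EC overlapped between juvenile (11.1% to 12.5%) and adult (9.42% to 12.6%) libraries. The juvenile mean over the adult mean was 1.84 in venous, 1.73 in CapV, 1.33 in CapA and 1.03 in arterial EC. The part of zone make-up in the 1.83-fold difference of all EC was not tested. Adult 1 had only 12 arterial, 28 CapA, 22 CapV and 16 venous EC.

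**Figure D4:**
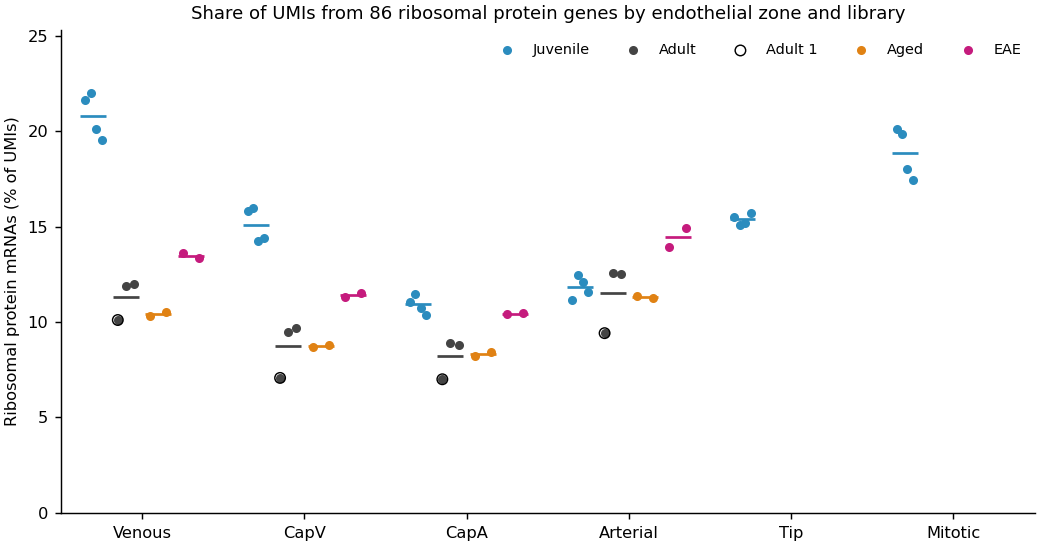
Share of UMIs from the 86 RP genes (y axis, percent of UMIs) in each library (points) of each endothelial zone (x axis), coloured by group with the group mean as a line and Adult 1 ringed. Juvenile venous EC lie at 19.5% to 22.0%, far above venous EC of the other groups, while juvenile and adult arterial EC overlap.

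With venous and CapV EC combined as the venous side, and arterial and CapA EC as the arterial side, the venous side was higher in 11 of 11 libraries, although arterial EC alone were above venous EC in 6 of them. Depth differed between the sides in some groups. Medians were 5257 to 8865 UMIs on the venous and 4590.5 to 6418.5 UMIs on the arterial side in juvenile libraries, and 3007 to 3092 against 2436.5 to 2492 UMIs in EAE. In adults they were 3215 to 3383.5 against 3136 to 3590.5 UMIs, and in aged libraries 2494 to 2715 against 2301 to 2459 UMIs. Over juvenile EC the RP share rose with UMIs (Spearman rho = 0.37 to 0.46 within a library), and the part of depth was not tested. Juvenile libraries had ratios of 1.69, 1.59, 1.48 and 1.52, adults 1.12, 1.04 and 1.06, aged 1.04 and 1.06, and EAE 1.14 and 1.11. In the paired fit 71 of 82 members were higher on the venous side and 0 lower, with a median of 0.35 against 0.03 for all genes, where 26.3% were called. Among members without shared stretches 18 of 21 were higher. Summing library pairs left 9 higher and 0 lower. The fit averages the juvenile libraries with groups of lower ratio. In every library 39 members were higher on the venous side, against 4.23% of all genes. Rpl38 had the largest difference and was higher in every library (0.96 ± 0.11 (SE), adjusted p = 1.1e-06), ahead of Rps7 (0.53 ± 0.14 (SE), adjusted p = 0.013) and Rplp0 (0.52 ± 0.11 (SE), adjusted p = 0.0014). Rpl22l1 did not follow (0.03 ± 0.09 (SE), adjusted p = 0.88). Non-ribosomal TOP mRNAs were higher on the venous side for 13 of 19 genes and lower for 1 (median 0.27), and ribosome biogenesis genes for 8 of 42 with 0 lower (median 0.16), against 13.8% of all genes higher.

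Juvenile mitotic EC had 20.1%, 19.9%, 18.0% and 17.4% RP UMIs, above the other juvenile EC in 4 of 4 libraries with a median ratio of 1.152. The other juvenile EC combine the 4 zones. Venous EC alone, at 21.6%, 22.0%, 20.1% and 19.5%, were above mitotic EC in 4 of 4 libraries. Of 82 members 69 were higher and 0 lower, with a median of 0.26, against 27.8% of all genes called, and 68 were higher with library pairs summed. Rpsa had the largest difference (0.67 ± 0.05 (SE), adjusted p = 8.4e-17), followed by Rps2 (0.48 ± 0.04 (SE), adjusted p = 1.8e-13) and Rps27l, a p53 target (0.45 ± 0.07 (SE), adjusted p = 2e-07). Its paralogue Rps27 was not called (-0.07 ± 0.04 (SE), adjusted p = 0.23). Mitotic EC also held more RNA, with medians of 9053 to 14151 UMIs per cell against 5106 to 8037. Tip EC came from a cluster of 1226 cells that scored highest for the tip list and was led by Angpt2, with Plaur, Akap12, Ctla2a and Mt2 among its top genes. The name was kept for its 34, 36, 62 and 61 juvenile cells, and its cells from other libraries were left unnamed, as was done for the mitotic cluster of 644 cells. These juvenile cells had 15.5%, 15.1%, 15.2% and 15.7%, above other juvenile EC in 1 of 4 libraries. There 2 members were higher (Rpl38, 0.27 ± 0.07 (SE), adjusted p = 0.0064, and Rpl23, 0.21 ± 0.08 (SE), adjusted p = 0.05) and Rps19 was lower (-0.23 ± 0.08 (SE), adjusted p = 0.028), of 82 tested and against 18.9% of all genes, and with library pairs summed edgeR called 0, with 2 at an unadjusted p under 0.05.

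The libraries of a group show how far members moved without a labelled difference in condition, though the spread within pairs may be technical. Adult 1 also differed in its zones, with 778 of its 857 EC left unnamed, against 431 of 2033 in Adult 2. In EC the median log2 ratio over 80 to 82 members lay within -0.04 to 0.01 for Juvenile 1 over 2, Juvenile 3 over 4, Adult 2 over 3, Aged 1 over 2 and EAE 1 over 2. Between Juvenile 1 and 2 and Juvenile 3 and 4 it was 0.14, with 72 of 81 members higher in the first pair, and between Adult 2 and 3 and Adult 1 it was 0.45, with 75 of 82 higher. The gap of 0.45 within the adult group stands beside edgeR medians of 0.93, 0.60 and 0.03 for juvenile, EAE and aged EC. Those medians are against all adults, with TMM scaling over 84 members. The gap is a ratio of CPM without that scaling, over 82 members with at least 200 UMIs. In Micro the juvenile gap was 0.19 and the gap of Adult 2 and 3 over Adult 1 was 0.06, smaller than that of Adult 2 over Adult 3 (-0.10, with 61 of 76 members below 0). The other pairs in Micro lay within -0.02 to 0.03.

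**Figure D5:**
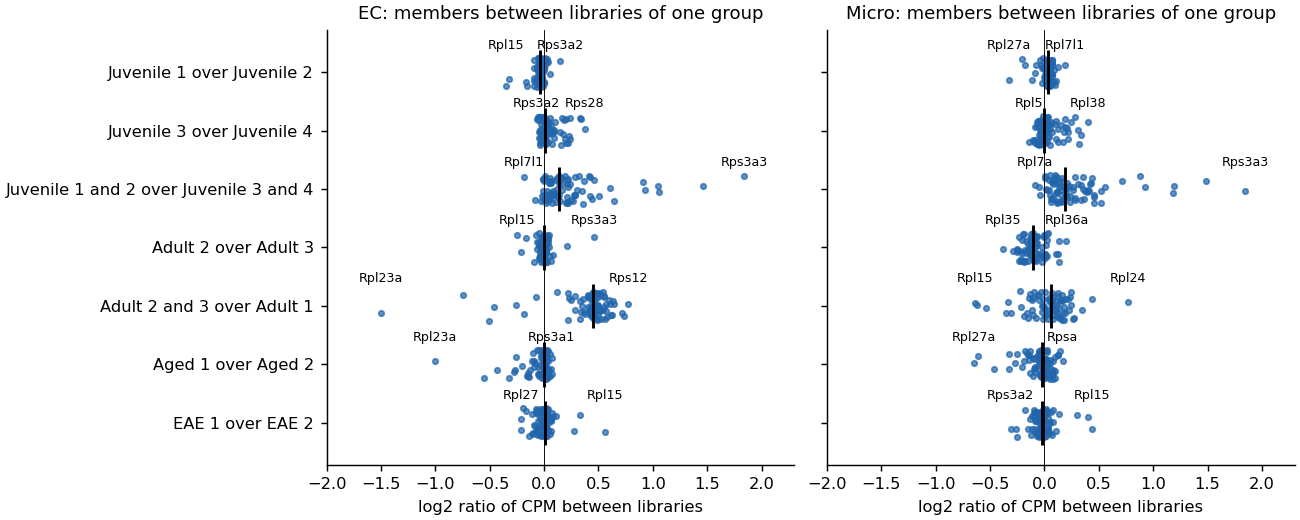
The log2 ratio of CPM (x axis) of each RP gene with at least 200 UMIs in the libraries compared (points), between libraries of 1 group (rows), in EC (left) and Micro (right), with black lines for medians and the names of the lowest and highest member. In EC the pairs lie near 0 while Adult 2 and 3 over Adult 1 lies at 0.45; in Micro Adult 2 over Adult 3 lies at -0.10 and Adult 2 and 3 over Adult 1 at 0.06.

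Single members moved further than the medians. Rps3a3 was 1.84 log2 units higher in EC of Juvenile 1 and 2 than of Juvenile 3 and 4, and 1.85 higher in Micro. Rpl23a was lower in EC of Adult 2 and 3 than of Adult 1 (-1.502) and lower in Aged 1 than Aged 2 (-1.01). Rpl15 differed by -0.35 between Juvenile 1 and 2 and by 0.56 between EAE 1 and 2 in EC. The ratio of Juvenile 1 and 2 over 3 and 4 fell with mRNA length over 79 members (Spearman rho = -0.30 in EC and -0.32 in Micro). The juvenile difference from adults rose with it over 81 members (0.36 in EC and 0.33 in Micro), as descriptions over genes. Other ratios within a group went either way. In EC rho was 0.36 for Aged 1 over 2, 0.36 for EAE 1 over 2 and -0.305 for Juvenile 3 over 4. In Micro it was 0.32 for Adult 2 and 3 over Adult 1 and -0.32 for Juvenile 3 over 4.

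The balance of subunits moved little. The ratio of large-subunit to small-subunit UMIs in EC was 1.23 to 1.29 in juvenile, 1.30 to 1.33 in adult, 1.27 to 1.28 in aged and 1.21 to 1.22 in EAE libraries, so EAE EC lay below and adult EC above all other EC. In Micro the ratio was 1.21 to 1.25 in juvenile, 1.26 to 1.31 in adult, 1.285 to 1.315 in aged and 1.24 to 1.25 in EAE libraries, where juvenile and EAE Micro lay below adult Micro. Because members differ in length and in shared sequence, the ratio compares libraries and is no count of subunits.

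Members that share no stretch with another gene moved as follows where this was not given above. In Micro against EC 2 of 22 were higher and 6 lower, and in PVM against Micro 9 of 21 were higher and 1 lower, both lower shares than the 73.3% and 56.1% of all genes called. In aged EC 0 of 22 were called by edgeR, against 10.5% of all genes. In PVM 13 of 21 rose in juvenile, 5 in aged and 15 in EAE cortex, with 0 lower in each, against 5.04%, 1.63% and 11.6% of all genes called higher. For the interactions of EC with Micro 0, 8 and 20 of 22 had a lower signed log2 change in EC in juvenile, aged and EAE cortex, with 0 higher, against 8.74%, 1.04% and 8.92% of all genes called lower. In mitotic EC 17 of 21 were higher, against 27.8% of all genes called, and in tip EC 1 of 21, against 18.9%.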

How the data were processed

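Single-cell RNA-seq was measured in 11 libraries. The authors deposited raw UMI counts per gene and barcode, made per the labels with bcl2fastq 2.19.1.403, UMI-tools 0.5.3, STAR 2.5.3a and featureCounts 1.6.1 on mm10; the annotation is not given in the sources used here. Barcodes with 500 to 6000 genes and at most 25% mitochondrial UMIs were kept. Cells were clustered with Seurat 5.3.0 (2000 variable genes without RP genes, 12 principal components, resolution 0.5) and named from marker lists, with score limits (1.0, and 0.6 for the second class) set after the clusters were seen. Scrublet in scanpy 1.11.5 called 764 doublets (1.51%), which were kept except in 1 alternative.

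UMIs were summed per library and population of at least 10 cells and tested in R 4.3.3 by the quasi-likelihood test of edgeR 4.0.16, after TMM scaling and the filterByExpr filter, with Benjamini-Hochberg adjustment over all genes and a threshold of 0.05. All p-values in the text are from edgeR unless DESeq2 1.42.0 is named. The scripts were tested on simulated data. Library totals were 14691248 to 33991548 UMIs, and no p is given for shares. A pair of libraries was to count as 1 unit at a mean squared deviation of at most 1.1 in both EC and Micro. No pair met this, so 11 libraries entered. Named members were the stalk genes, Rpsa, Rps6 and paralogue pairs, plus the 3 largest and 3 smallest changes per comparison at 50 CPM or more; members outside this rule, such as Rpl15, Rpl27a and Rpl35 where they are named, were chosen after their values were seen. Members and lists were chosen with earlier results of these data known. 1 member that this rule names is not reported here by name, though it is in the counts and medians.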

Additional observations from a re-analysis of the deposited data

Results flagged for a closer look

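Of 70 groups of 4 juvenile libraries tested with Dixon's criterion, 3 held a library far from the others, and chance gives about 1 in 20. In juvenile Micro the highest Rpl3l value was 0.295 CPM, the lowest Gnb2l1 value was 524 CPM and the lowest Eef1b2 value was 353 CPM.

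The changes in EC and Micro differed from each other by the edgeR interaction test for 9 members in juvenile, 31 in aged and 76 in EAE cortex, of 83 members tested, against 17.9%, 1.41% and 15.6% of all genes. The first changed direction between settings and the second fell to 0 under several, while the third was 24 with library pairs summed.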

How the results depend on the processing

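With library pairs summed the number of members called became 0 in aged EC, 0 in EAE EC, 0 in aged Micro, 2 in juvenile PVM, 0 in aged PVM, 30 in EAE PVM, 0, 0 and 24 for the juvenile, aged and EAE interactions, 19 for PVM against Micro, 9 for the venous side and 0 for tip EC. At an unadjusted p under 0.05 edgeR had 1 member in aged EC, 51 in EAE EC, 37 in aged Micro, 8 in aged PVM, 2 and 17 for the juvenile and aged interactions and 2 for tip EC. DESeq2 gave 6 in aged EC, 12 for the juvenile interaction (9 with a higher signed change in EC and 3 with a lower one, the reverse of edgeR) and 1 for tip EC. Cells of at least 1500 UMIs gave 16 in aged Micro, 11 for the juvenile interaction, also reversed, and 0 for the aged one. Without a filter on low counts there were 5 and 0 for these interactions, 23 for PVM against Micro and 12 for tip EC, 11 of them lower. Naming cells by marker score gave 5 and 13 for the juvenile and aged interactions. Leaving out 1 library at a time gave 0 to 11 in aged EC, 1 to 42 in aged Micro, 1 to 15 in aged PVM, 2 to 35 and 0 to 64 for the juvenile and aged interactions and 0 to 7 for tip EC. The direction turned without Aged 1 or Aged 2 in aged PVM (1 member each), without Adult 2 for the juvenile interaction (5), and without Juvenile 3 (1) or Juvenile 4 (7) for tip EC. The cause was not tested. Shares of all genes are not given beside the counts of this section, so a changed count need not be particular to RP genes. Summing pairs leaves 1 aged and 1 EAE unit. In the zone fit below, summing pairs took the juvenile calls over all genes from 12.4% to 6.13%. At an unadjusted p the share of all genes was not counted for any comparison. Removing doublets or mitochondrial genes moved no count by over 1.5 times, and finer zones, run for the venous side alone, gave 75. Treating every library separately is the fit reported. Same-numbered libraries did not deviate together (correlations -0.17 to 0.09), so the numbers do not pair them; the replicate block gave 5 calls in aged EC and changed no other count by over 1.5 times.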

Other observations

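Whether the zone difference itself changed with condition was fitted after the shares by zone had been seen. The excess of the venous over the arterial side was larger in juvenile than in adult EC for 80 of 83 members by edgeR. The median log2 difference was 0.66, and 12.4% of all genes were called. The count was 80 without Adult 1. It was 78 of 84 with library pairs summed, against 6.13% of all genes in that fit. For aged EC few genes were called in all (187 of 12465), so a count of 0 would not set RP genes apart. There edgeR called 0 of 83 members, with 1 at an unadjusted p under 0.05. For EAE EC it called 5 of 83 members, against 5.50% of all genes, with 29 at an unadjusted p under 0.05 and a median of 0.14, and 4 without Adult 1 and 0 with library pairs summed, where 2 had an unadjusted p under 0.05.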
